A study of Mus musculus with 8 samples.

Results

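Imprinted genes are expressed from only 1 of the parental alleles in at least some tissues. The 39 genes described here were chosen by name from the imprinted clusters of the mouse, and every row of the expression table that carried one of these names was taken. Of the 39 genes, 38 were found among the 36808 genes of the table. *Kcnq1ot1*, the paternally expressed noncoding RNA of the *Kcnq1* cluster, was not found under that symbol. In the 8 libraries, 36 of the 38 genes reached 1 FPKM somewhere and 24 reached 10 FPKM, where FPKM is the fragment count of a gene scaled by its transcript length and by the size of the library. The other 2 stayed below 1 FPKM in every library, with highest values of 0.778 FPKM for *Ascl2*, a transcription factor of the trophoblast, and 0.253 FPKM for *Rasgrf1*, an exchange factor of small GTPases. FPKM adds both alleles together, so these values say how much RNA each gene gave and not from which allele.

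At most imprinted clusters a control region carries DNA methylation on the allele of only 1 parent, set in the germ line and kept after fertilization by ZFP57, TRIM28 and the maintenance methyltransferase DNMT1. Within a cluster, a long noncoding RNA and the protein-coding genes around it are often expressed from opposite alleles, as *H19* and *Igf2* or *Airn* and *Igf2r* are. PRC2, the complex of EED, SUZ12 and EZH2, places H3K27me3, which is found on the silent allele at some clusters, and in the early embryo a few genes such as *Sfmbt2* and *Slc38a4* are imprinted through maternal H3K27me3 in place of DNA methylation.

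Expression was measured by RNA-seq in mouse ESCs and in cells at day 5 of directed differentiation to spinal motor neurons (SMNs), to compare lines that lack PRC2 activity to different degrees. The ESCs (day 0, except that the label of CJ7 gives no day) were E14 wild type (129/Ola background), CJ7, a further wild-type line (129/S), Suz12delta (C57/BL6) and Eednull (BALB/cR1). Day 5 cells were E14 wild type, Suz12GT (129/Ola), Suz12delta and Eednull, and a library of Suz12GT ESCs was not analysed here. Suz12GT carries a gene trap that fuses SUZ12 to β-galactosidase and keeps part of its H3K27me3, Suz12delta a truncation of SUZ12 and Eednull a point mutation in *Eed*, and the last 2 lines have lost nearly all H3K27me3. Each condition was a single line and a single library, so no difference below has a replicate check or a test. Genotype and line cannot be told apart in any comparison between lines. Among comparisons between lines, strain background is the same only for Suz12GT with E14. The spread between E14 and CJ7 ESCs is the only measure here of how far these genes vary between lines with intact PRC2. Per the labels, CJ7 was prepared and sequenced together with a library whose short name the table gives to Eednull ESCs, so comparisons of either with E14 may also cross a batch.

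The table held no read counts, and the depth of each library is unknown. Between 21932 and 25636 genes were above 0 per library, and the FPKM values summed to between 389165 and 797748. *Suz12* itself was at 41.3 FPKM in E14, 53.1 FPKM in CJ7 and 35.7 FPKM in Eednull ESCs, and at 6.21 FPKM in Suz12delta ESCs. At day 5 *Suz12* was at 16.2 FPKM in E14, 10.3 FPKM in Suz12GT, 11.6 FPKM in Suz12delta and 17.6 FPKM in Eednull cells, so its RNA set Suz12delta apart in ESCs but much less at day 5. The level of *Eed* RNA does not check a point mutation. The 8 markers of the motor neuron lineage summed to 147 FPKM in E14 and 115 FPKM in Suz12GT day 5 cells. In Suz12delta and Eednull cells they summed to 19.8 and 18.3 FPKM, and 8 of 8 were at least 2-fold lower than in E14. The shares of all genes that were lower were 9.52% and 11.3%. *Olig2* was at 0.107 and 0.0455 FPKM in these libraries, *Pax6* at 7.24 and 9.35 FPKM and *Isl1* at 5.32 and 4.43 FPKM. Of the 8 markers, 5 in Suz12delta and 4 in Eednull cells reached 1 FPKM, so RNA of this lineage was low but not absent. The 12 fibroblast markers, of interest because ESCs were grown on embryonic fibroblast feeders that were depleted before collection, summed to 103 FPKM in E14, 125 FPKM in CJ7, 646 FPKM in Suz12delta and 295 FPKM in Eednull ESCs. No fibroblast marker was listed at 0 in any ESC library. In bulk RNA, more cells of a type and more RNA per cell cannot be told apart, and the part of such cells in any value below was not tested.

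For 32 of the 39 genes, RefSeq promoter windows on GRCm38.p6 were at hand, each of 300 bases from 250 bases before to 50 bases after an annotated start. The motif TGCCGC, the core bound by ZFP57 when its CpG is methylated, was found on either strand in 11.61% of all 32851 windows and in 10 of the 49 windows of imprinted genes (20.41%). The genes without a window were *H19*, *Cdkn1c*, *Rtl1*, *Peg10*, *Sgce*, *Nespas* and *Impact*. Counted by gene, 9 of the 32 imprinted genes (28.12%) and 13.05% of all genes held it. The median window had 12 CpGs in imprinted genes and 7 in all genes. The sequences below are shown because the first 3 belong to genes whose levels in the mutant ESCs exceeded those of both wild-type lines by 2-fold or more, and the other 3 to genes that were higher in all 3 mutants at day 5 and were picked after their values were seen. Where a gene had several windows, the one with the most motif matches, and then the most CpGs, is shown. For such genes a match in the sequence shown thus follows from this choice. CpGs are in capitals, and each sequence is written on the strand of its gene.
Airn: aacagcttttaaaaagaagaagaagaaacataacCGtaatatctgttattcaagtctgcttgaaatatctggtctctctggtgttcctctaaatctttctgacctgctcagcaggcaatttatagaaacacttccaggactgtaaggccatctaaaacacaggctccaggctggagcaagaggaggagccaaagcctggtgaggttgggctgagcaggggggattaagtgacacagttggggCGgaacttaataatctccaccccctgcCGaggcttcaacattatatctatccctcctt
Dlk1: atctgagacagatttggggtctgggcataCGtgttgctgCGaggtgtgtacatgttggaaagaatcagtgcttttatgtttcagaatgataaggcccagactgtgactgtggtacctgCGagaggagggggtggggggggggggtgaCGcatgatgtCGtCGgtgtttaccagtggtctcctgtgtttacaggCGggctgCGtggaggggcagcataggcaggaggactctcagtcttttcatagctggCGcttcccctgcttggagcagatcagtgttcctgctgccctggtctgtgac
Igf2: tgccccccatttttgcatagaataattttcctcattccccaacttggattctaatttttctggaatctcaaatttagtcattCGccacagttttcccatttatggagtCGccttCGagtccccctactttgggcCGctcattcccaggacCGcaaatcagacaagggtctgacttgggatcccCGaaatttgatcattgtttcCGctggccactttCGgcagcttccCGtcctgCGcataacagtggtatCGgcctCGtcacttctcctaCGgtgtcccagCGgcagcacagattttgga
Mest: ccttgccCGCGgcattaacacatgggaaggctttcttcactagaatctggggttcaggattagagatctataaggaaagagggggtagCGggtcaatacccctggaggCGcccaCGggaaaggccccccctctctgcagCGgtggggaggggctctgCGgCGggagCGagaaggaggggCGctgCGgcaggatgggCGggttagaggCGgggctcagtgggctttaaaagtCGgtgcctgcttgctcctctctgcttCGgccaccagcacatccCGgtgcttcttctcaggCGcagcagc
Nnat: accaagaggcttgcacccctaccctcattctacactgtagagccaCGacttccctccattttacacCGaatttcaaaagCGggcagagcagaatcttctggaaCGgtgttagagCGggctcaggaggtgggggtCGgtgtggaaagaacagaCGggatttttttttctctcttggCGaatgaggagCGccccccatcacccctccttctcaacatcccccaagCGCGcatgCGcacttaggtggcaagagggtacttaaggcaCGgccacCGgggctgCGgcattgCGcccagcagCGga
Plagl1: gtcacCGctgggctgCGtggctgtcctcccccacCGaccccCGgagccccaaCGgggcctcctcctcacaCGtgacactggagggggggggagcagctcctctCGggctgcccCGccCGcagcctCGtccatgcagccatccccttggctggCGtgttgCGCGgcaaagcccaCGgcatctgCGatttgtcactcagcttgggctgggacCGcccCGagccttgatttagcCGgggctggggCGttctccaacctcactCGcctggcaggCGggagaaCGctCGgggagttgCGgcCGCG
The *Airn* window (chr17:12741061-12741360, plus strand) held 3 CpGs and the *Dlk1* window (chr12:109452573-109452872, plus strand) held 9, and neither held the motif. The *Igf2* window shown (chr7:142661222-142661521, minus strand) held 14 CpGs and the motif at position 281, counted from 1 at the first base shown. The other windows of *Igf2*, such as chr7:142658755-142659054 with 24 CpGs, did not hold the motif. In the *Mest* window shown (chr6:30737800-30738099, plus strand) there were 17 CpGs and the motif at positions 9 and 184. A further *Mest* window (chr6:30733256-30733555) did not hold it. The *Nnat* window (chr2:157559828-157560127, plus strand) also had 17 CpGs, with the motif at position 278. The window of *Plagl1* (chr10:13090582-13090881, plus strand) had 26 CpGs, with the motif at position 161. All of these matches read GCGGCA on the strand shown. A match describes letters in the sequence, and binding and methylation were not measured here.

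Among ESCs, imprinted genes differed in both directions, and the wild-type lines already differed at several of them. For each comparison, genes that reached 0.1 FPKM in either library were kept, a log2 ratio of FPKM plus a pseudocount of 0.1 was taken, and a gene was counted as different at 2-fold or more. CJ7 ESCs had 6 of 36 imprinted genes at least 2-fold higher than E14 ESCs, beside 15.7% of all genes, and 7 lower, beside 14.7% of all genes. In Suz12delta ESCs 11 of 36 were higher than in E14 ESCs, beside 18% of all genes, and 9 were lower, beside 22.8%. In Eednull ESCs 10 of 38 were higher, beside 22.4%, and 6 were lower, beside 11.9%. The median log2 ratio of the imprinted genes was -0.42 in CJ7, 0.02 in Suz12delta and 0.51 in Eednull ESCs, and that of all genes was -0.12, -0.28 and 0.04.

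With CJ7 as the wild-type line, 12 of 36 imprinted genes were at least 2-fold higher in Suz12delta ESCs, beside 21.1% of all genes, and 5 were lower, beside 24%. In Eednull ESCs 8 of 36 were higher than in CJ7, beside 20.5%, and 0 were lower, beside 10.7%. When the lowest mutant value had to be at least 2-fold above the highest wild-type value, 4 of 38 imprinted genes were higher, beside 3.4% of all genes, and 0 were lower, beside 1.31%. The 4 genes were *H19*, *Airn*, *Dlk1* and *Igf2*. Without CJ7 the counts were 8 higher and 4 lower, beside 6.82% and 6.37% of all genes, and without Eednull ESCs they were 8 higher and 5 lower, beside 11.9% and 10.3%. When the libraries were scaled to the same 75th percentile, the median of all genes moved by 0.36 in Suz12delta, 0.16 in Eednull and 0.22 in CJ7 ESCs relative to E14. The share of the differing imprinted genes that were higher then went from 55% to 68.8% in Suz12delta and from 46.2% to 60% in CJ7 ESCs against E14, and from 100% to 88.9% in Eednull against CJ7 ESCs. Over all genes the same shares went from 44.1% to 62.7%, from 51.7% to 61.4% and from 65.8% to 63.8%.

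At day 5, a larger share of imprinted genes than of all genes was above wild type in each mutant. In Suz12GT cells 14 of 35 were at least 2-fold higher than in E14 day 5 cells, beside 16.8% of all genes, and 3 were lower, beside 4.4%. In Suz12delta cells 20 of 36 were higher, beside 26.6%, and 5 were lower, beside 9.52%. In Eednull cells 20 of 38 were higher, beside 21.6%, and 3 were lower, beside 11.3%. Their median log2 ratio was 0.38 in Suz12GT, 1.26 in Suz12delta and 1.05 in Eednull cells, where all genes had medians of 0.13, 0.26 and 0.08. With a pseudocount of 1, 7 genes in place of 14 were higher in Suz12GT cells, beside 4.95% of all genes. The 3 comparisons share the E14 day 5 library, in which 8 imprinted genes, *H19*, *Igf2*, *Phlda2*, *Plagl1*, *Impact*, *Slc38a4*, *Sfmbt2* and *Zrsr1*, had their lowest value of all libraries. By the same count 10 genes were lowest in CJ7 ESCs and 8 in E14 ESCs. *Slc22a18* and *Ascl2*, listed at 0 in E14 day 5 and in other libraries, were counted for CJ7.

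Over differentiation, 12 of 36 imprinted genes were at least 2-fold higher at day 5 than in ESCs in E14, beside 18.3% of all genes, and 7 were lower, beside 25.8%. In Suz12delta 20 of 38 rose by this measure, beside 26.9%, and 7 fell, beside 12.6%. In Eednull 18 of 38 rose, beside 18.4%, and 4 fell, beside 24.8%, and with a pseudocount of 1 the 18 became 11, beside 8.92% of all genes. The summed FPKM of the 38 genes was 863 in E14, 684 in CJ7, 1343 in Suz12delta and 1223 in Eednull ESCs. At day 5 the sum was 1113 in E14 and 1189.7 in Suz12GT cells, against 3356 in Suz12delta and 3114 in Eednull cells.

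**Figure D1:**
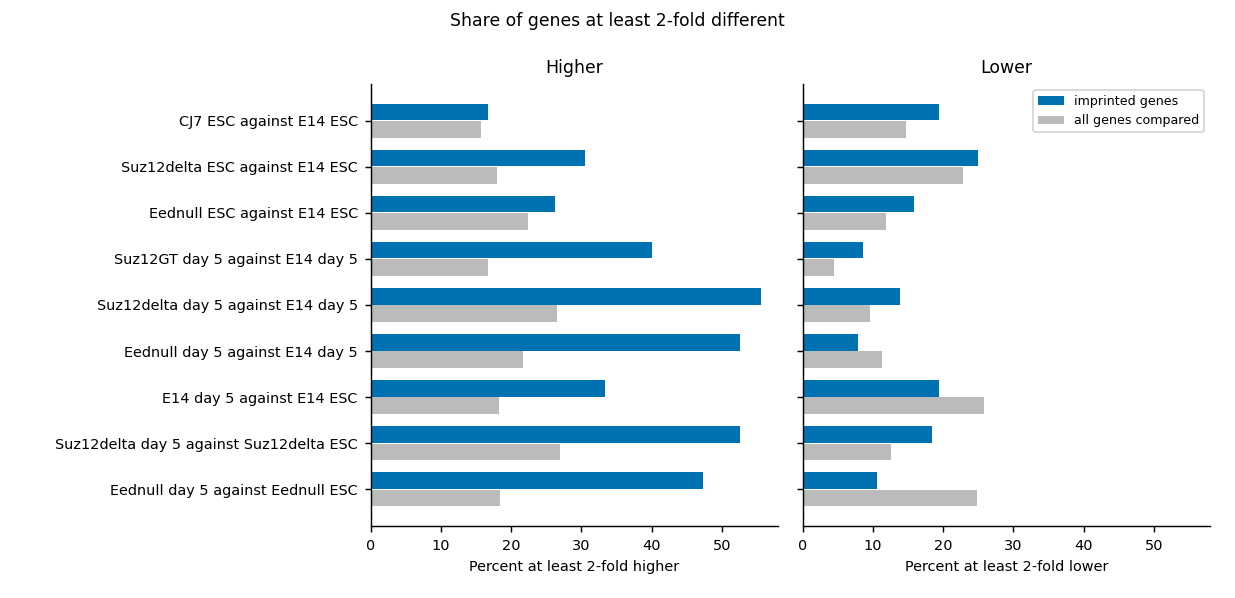
Percent of imprinted genes (blue) and of all genes compared (grey) that were at least 2-fold higher (left) or lower (right) in each comparison of 2 libraries, on axes that start at 0. At day 5 the share of imprinted genes that were higher was 40.0% in Suz12GT, 55.6% in Suz12delta and 52.6% in Eednull cells, in each case above that of all genes.

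**Figure D2:**
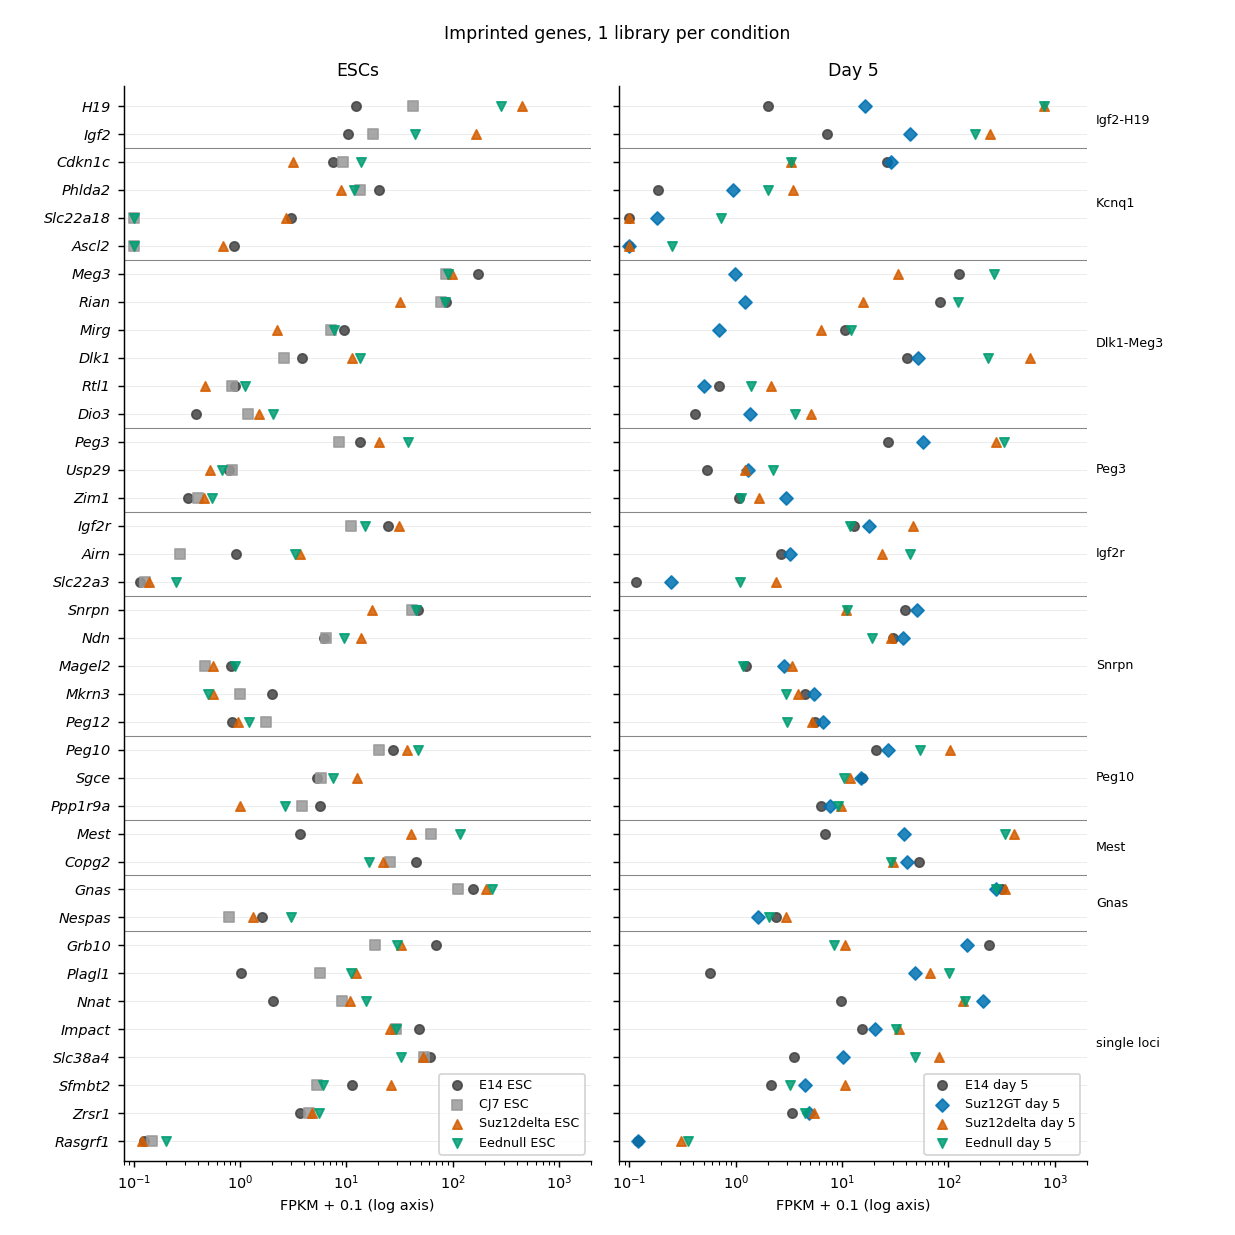
FPKM plus 0.1 of the 38 imprinted genes on a log axis, in the 4 ESC libraries (left) and the 4 day 5 libraries (right), with 1 point per library and lines between clusters. *H19*, *Igf2*, *Dlk1*, *Peg3* and *Mest* in Suz12delta and Eednull day 5 cells lay far to the right of E14, and *Meg3*, *Rian* and *Mirg* in Suz12GT cells far to the left.

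*H19* had the widest range of the genes above 0 in every library. *H19* (chr7:149761434-149764048, minus strand, NCBI build 37), a maternally expressed noncoding RNA and the host of a microRNA, was at 12.2 FPKM in E14 and 42.3 FPKM in CJ7 ESCs, and at 447 FPKM in Suz12delta and 286 FPKM in Eednull ESCs. At day 5 it was at 1.92 FPKM in E14, 16.3 FPKM in Suz12GT, 796 FPKM in Suz12delta and 793 FPKM in Eednull cells. Both mutant ESC lines were thus above both wild-type lines, and at day 5 Suz12delta and Eednull were alike while Suz12GT lay between them and E14. The log2 ratio to E14 ESCs was 5.18 in Suz12delta, 4.54 in Eednull and 1.78 in CJ7, and the smallest difference between a mutant and a wild-type ESC line was 2.75. At day 5 the log2 ratio to E14 was 3.02 in Suz12GT, 8.62 in Suz12delta and 8.62 in Eednull cells. *H19* was lower at day 5 than in ESCs in E14 (log2 ratio -2.61) and higher in Eednull (1.47), with 0.83 in Suz12delta.

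Its neighbour *Igf2* (chr7:149836673-149852721, minus strand), a growth factor expressed from the paternal allele, was at 10.3 FPKM in E14, 17.8 FPKM in CJ7, 166 FPKM in Suz12delta and 43.9 FPKM in Eednull ESCs. At day 5 *Igf2* was at 7.11 FPKM in E14, 43.0 FPKM in Suz12GT, 246 FPKM in Suz12delta and 177 FPKM in Eednull cells. The order of the day 5 libraries was the same as for *H19*. The log2 ratio to E14 was 4.0 in Suz12delta and 2.08 in Eednull ESCs, and 2.58, 5.09 and 4.62 in Suz12GT, Suz12delta and Eednull day 5 cells. The genes of this pair are known to be expressed from opposite alleles, yet both were higher in the mutants. The ratio of *H19* to *Igf2* was 1.18 in E14 and 2.38 in CJ7 ESCs, 2.69 in Suz12delta and 6.52 in Eednull ESCs. At day 5 it was 0.269 in E14 and 0.378 in Suz12GT cells, where *Igf2* exceeded *H19*, and 3.23 in Suz12delta and 4.47 in Eednull cells.

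*H19* and *Igf2* were highest in libraries that also held more RNA of other cell types. Relative to E14 ESCs, 12 of the 12 fibroblast markers were at least 2-fold higher in Suz12delta, 5 in Eednull and 2 in CJ7 ESCs. Of all genes, 18%, 22.4% and 15.7% were higher in these comparisons. At day 5 the fibroblast markers summed to 4.38 FPKM in E14, 17.2 FPKM in Suz12GT, 129 FPKM in Suz12delta and 70.5 FPKM in Eednull cells. Between ESCs and day 5 in Suz12delta the fibroblast sum went from 646 to 129 FPKM, *H19* from 447 to 796 FPKM and *Igf2* from 166 to 246 FPKM. In Eednull cells the fibroblast sum went from 295 to 70.5 FPKM and *H19* from 286 to 793 FPKM. The 8 markers of extraembryonic endoderm summed to 4.98 FPKM in E14, 5.80 FPKM in CJ7, 34.7 FPKM in Suz12delta and 51.9 FPKM in Eednull ESCs. At day 5 they summed to 2.41 FPKM in E14, and to 28.2, 41.1 and 43.5 FPKM in Suz12GT, Suz12delta and Eednull cells. The 8 trophoblast markers summed to 2.40, 4.04, 48.7 and 13.8 FPKM in E14, CJ7, Suz12delta and Eednull ESCs, and to 0.224, 2.16, 40.2 and 42.8 FPKM in E14, Suz12GT, Suz12delta and Eednull day 5 cells. *Krt7*, a keratin of many epithelia, gave 27.8 and 32.7 FPKM of the trophoblast sums of Suz12delta and Eednull day 5 cells. In these cells *Eomes* was at 0.454 and 0.199 FPKM, *Gcm1* at 0.0175 and 0.0251 FPKM and *Psg17* at 0.181 and 0.0294 FPKM. There *Cdx2* was at 6.77 and 5.79 FPKM, *Elf5* at 3.21 and 3.03 FPKM and *Hand1* at 1.79 and 1.08 FPKM. Of the trophoblast markers compared, 6 of 6 in Suz12delta and 5 of 5 in Eednull cells were at least 2-fold above E14 day 5. The shares of all genes were 26.6% and 21.6%. Among the trophoblast markers *Tpbpa* was listed at 0 in E14 and Suz12delta ESCs and in E14, Suz12delta and Eednull day 5 cells, and *Afp* of the endoderm list was at 0 in E14, CJ7 and Suz12delta ESCs. How far cells of any of these types contributed to the *H19* and *Igf2* values was not tested.

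**Figure D3:**
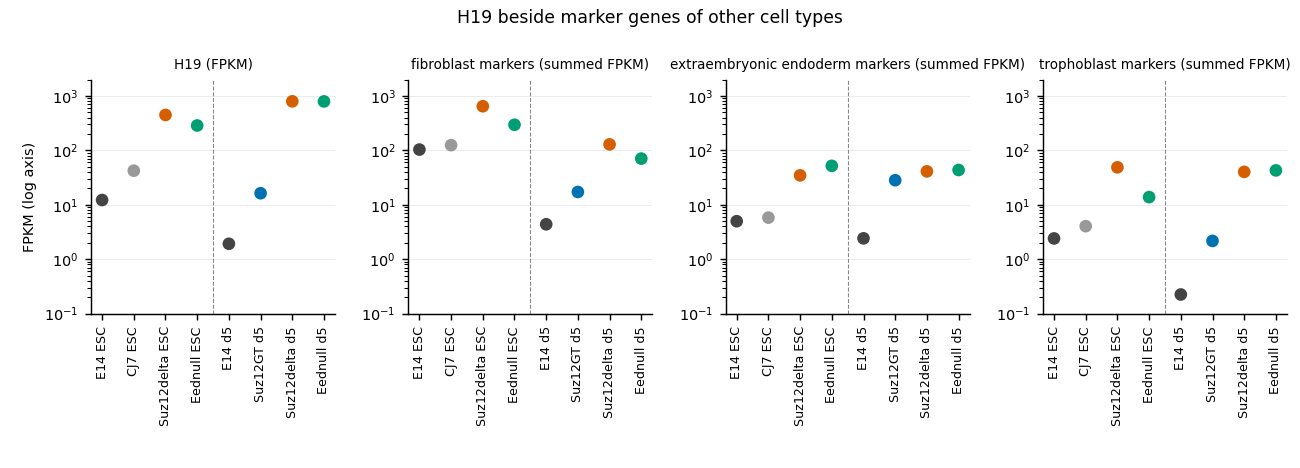
*H19* (left) and the summed FPKM of the fibroblast, extraembryonic endoderm and trophoblast markers in the 8 libraries, each on the same log axis of FPKM, with 1 point per library and a dashed line between ESCs and day 5. From ESCs to day 5 the fibroblast sum was lower in Suz12delta (646 to 129 FPKM) and in Eednull (295 to 70.5 FPKM), and *H19* was higher in both. The part of such cells in *H19* was not tested.

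The *Kcnq1* cluster lies further along chromosome 7. *Cdkn1c*, the maternally expressed cell cycle inhibitor p57, was at 7.43 FPKM in E14, 9.08 FPKM in CJ7, 3.06 FPKM in Suz12delta and 13.7 FPKM in Eednull ESCs. At day 5 *Cdkn1c* was at 26.1 FPKM in E14 and 28.7 FPKM in Suz12GT cells, and at 3.23 FPKM in Suz12delta and 3.17 FPKM in Eednull cells. It was thus one of the few imprinted genes that were lower than wild type at day 5, with log2 ratios of -2.97 in Suz12delta and -3.00 in Eednull cells and 0.14 in Suz12GT cells. *Phlda2*, a maternally expressed protein that restrains growth of the placenta, was at 20.3 FPKM in E14, 13.4 FPKM in CJ7, 8.78 FPKM in Suz12delta and 11.6 FPKM in Eednull ESCs. At day 5 *Phlda2* was at 0.0861 FPKM in E14, 0.845 FPKM in Suz12GT, 3.31 FPKM in Suz12delta and 1.90 FPKM in Eednull cells. All 4 ESC libraries were above all 4 day 5 libraries, with the smallest decline in Suz12delta (log2 ratio -1.38) and the largest in E14 (-6.78).

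*Slc22a18*, a maternally expressed transporter of the same cluster, was at 2.88 FPKM in E14 and 2.63 FPKM in Suz12delta ESCs and was listed at 0 in CJ7 and Eednull ESCs. At day 5 it was listed at 0 in E14 and Suz12delta cells, and was at 0.0815 FPKM in Suz12GT and 0.632 FPKM in Eednull cells. *Ascl2* followed the same split in ESCs, with 0.778 FPKM in E14, 0.594 FPKM in Suz12delta and 0 listed in CJ7 and Eednull. At day 5 *Ascl2* was at 0.153 FPKM in Eednull cells and listed at 0 in the other libraries. The ESC libraries at 0 for both genes were those that the labels may place in 1 batch, whose part was not tested, and no fold is given for a gene listed at 0.

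The Dlk1-Meg3 cluster on chromosome 12 showed the sharpest contrast between mutants. *Meg3* (chr12:110779211-110809936, plus strand), a maternally expressed long noncoding RNA, was at 173 FPKM in E14, 86.8 FPKM in CJ7, 97.5 FPKM in Suz12delta and 90.6 FPKM in Eednull ESCs. At day 5 *Meg3* was at 125 FPKM in E14, 0.890 FPKM in Suz12GT, 33.5 FPKM in Suz12delta and 269 FPKM in Eednull cells. The ESC libraries were within 2-fold of each other, but Suz12GT ESCs were not among them. At day 5 Suz12GT was far below all others and Eednull was the highest of all. Whether *Meg3* was already low in Suz12GT ESCs is thus not known here. The log2 ratio to E14 day 5 cells was -6.98 in Suz12GT, -1.89 in Suz12delta and 1.11 in Eednull cells. *Rian*, the maternally expressed host of small nucleolar RNAs that lies just downstream, was at 86.1 FPKM in E14, 77.5 FPKM in CJ7, 32.0 FPKM in Suz12delta and 84.0 FPKM in Eednull ESCs. At day 5 *Rian* was at 82.6 FPKM in E14, 1.12 FPKM in Suz12GT, 15.5 FPKM in Suz12delta and 122 FPKM in Eednull cells. *Mirg*, a maternally expressed host of microRNAs, was at 9.41 FPKM in E14, 7.04 FPKM in CJ7, 2.15 FPKM in Suz12delta and 7.47 FPKM in Eednull ESCs. At day 5 *Mirg* was at 10.6 FPKM in E14, 0.591 FPKM in Suz12GT, 6.24 FPKM in Suz12delta and 12.05 FPKM in Eednull cells. All 3 maternally expressed noncoding RNAs therefore had the same order at day 5, from Suz12GT through Suz12delta and E14 to Eednull. The log2 ratios of Suz12GT to E14 were -6.08 for *Rian* and -3.95 for *Mirg*, and these 3 genes were the 3 imprinted genes that were at least 2-fold lower in Suz12GT cells. Suz12GT and E14 share their strain background, but line and genotype cannot be told apart with 1 library of each.

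The paternally expressed genes of this cluster did not follow the day 5 order of the noncoding RNAs, although *Rtl1* was also lowest in Suz12GT cells. *Dlk1* (chr12:110691033-110701546, plus strand), a transmembrane protein related to Notch ligands, was at 3.75 FPKM in E14, 2.48 FPKM in CJ7, 11.2 FPKM in Suz12delta and 13.3 FPKM in Eednull ESCs. At day 5 *Dlk1* was at 41.1 FPKM in E14, 51.9 FPKM in Suz12GT, 584 FPKM in Suz12delta and 233 FPKM in Eednull cells. Both mutant ESC lines were above both wild-type lines, by a log2 ratio of at least 1.56, and the 3 lines measured at both times had more *Dlk1* at day 5 than in ESCs. At day 5 the log2 ratio to E14 was 0.34 in Suz12GT, 3.83 in Suz12delta and 2.50 in Eednull cells. The ratio of *Meg3* to *Dlk1* was 46.2 in E14, 35.0 in CJ7, 8.69 in Suz12delta and 6.84 in Eednull ESCs, and 3.04, 0.0171, 0.0574 and 1.15 in E14, Suz12GT, Suz12delta and Eednull day 5 cells. In Suz12GT cells *Meg3* was low and *Dlk1* was near its E14 level, whereas in Suz12delta cells *Meg3* was lower and *Dlk1* higher than in E14.

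*Dio3*, an enzyme that inactivates thyroid hormone, was at 0.286 FPKM in E14, 1.08 FPKM in CJ7, 1.41 FPKM in Suz12delta and 1.94 FPKM in Eednull ESCs. At day 5 *Dio3* was at 0.313 FPKM in E14, 1.27 FPKM in Suz12GT, 5.03 FPKM in Suz12delta and 3.52 FPKM in Eednull cells, so E14 was the lowest at both times. *Rtl1*, a retrotransposon-derived gene of the placenta, was at 0.789 FPKM in E14, 0.736 FPKM in CJ7, 0.369 FPKM in Suz12delta and 1.01 FPKM in Eednull ESCs. At day 5 *Rtl1* was at 0.592 FPKM in E14, 0.397 FPKM in Suz12GT, 2.06 FPKM in Suz12delta and 1.304 FPKM in Eednull cells. The day 5 ratios of *Rtl1* to E14 in Suz12delta and Eednull cells fell below 2-fold with a pseudocount of 1 (log2 ratios 0.94 and 0.53).

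**Figure D4:**
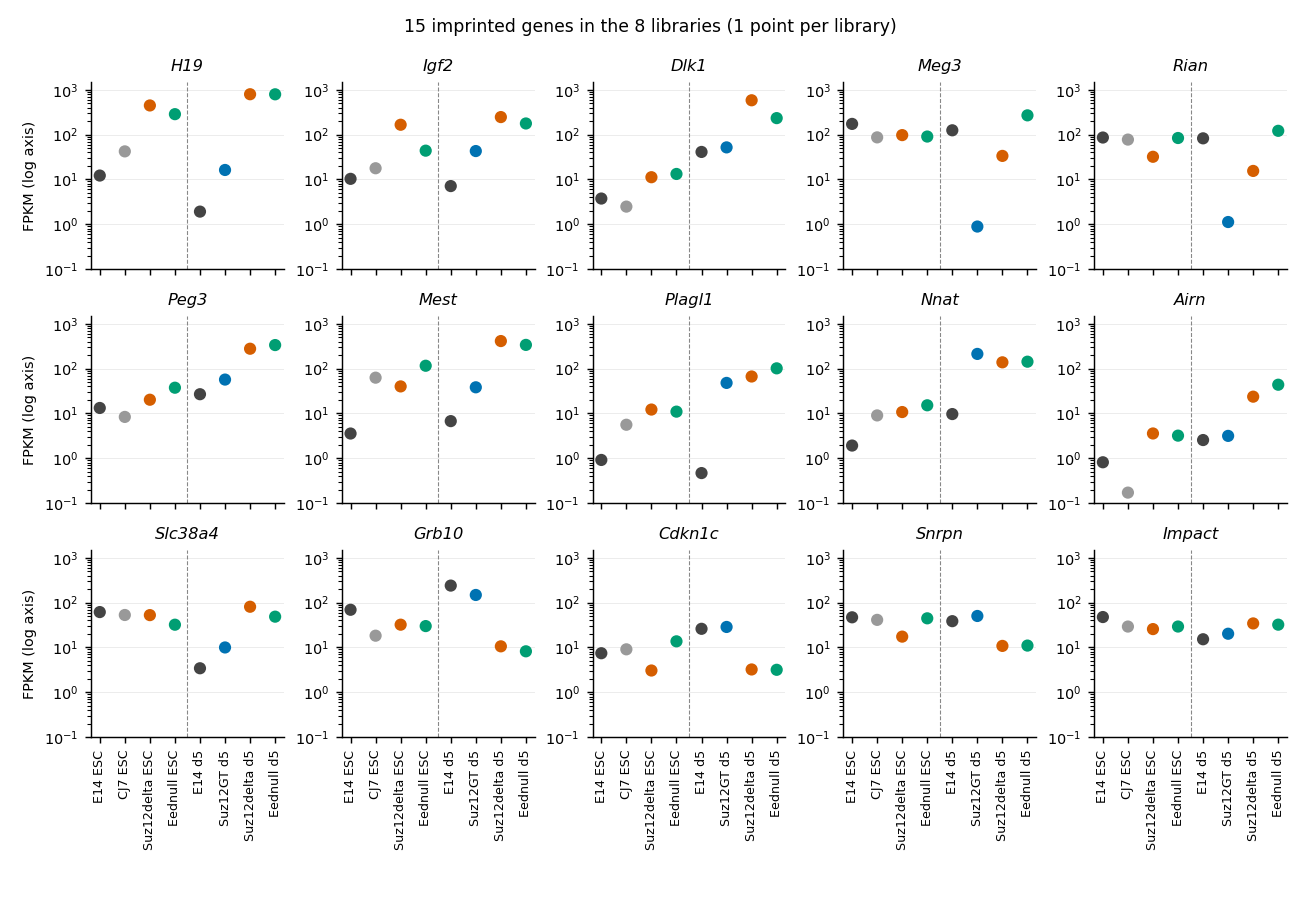
FPKM of 15 imprinted genes, picked after their values were seen, in the 8 libraries, on the same log axis in each panel, with 1 point per library and a dashed line between ESCs (left of it) and day 5 (right of it). *Meg3* and *Rian* were near 1 FPKM in Suz12GT day 5 cells alone, *Plagl1* was below 1 FPKM in both E14 libraries, and *Grb10*, *Cdkn1c* and *Snrpn* were lower in Suz12delta and Eednull than in E14 and Suz12GT day 5 cells.

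In the *Peg3* cluster, *Peg3* (chr7:6656603-6683132, minus strand), a paternally expressed zinc finger protein, was at 13.3 FPKM in E14, 8.37 FPKM in CJ7, 20.2 FPKM in Suz12delta and 37.5 FPKM in Eednull ESCs. At day 5 *Peg3* was at 26.9 FPKM in E14, 57.0 FPKM in Suz12GT, 278 FPKM in Suz12delta and 335 FPKM in Eednull cells. The libraries did not overlap between mutants and wild type at either time, although Suz12delta ESCs were less than 2-fold above E14 ESCs. The day 5 log2 ratios were 1.08 in Suz12GT, 3.37 in Suz12delta and 3.64 in Eednull cells. *Usp29*, a ubiquitin-specific protease, was at 0.692, 0.733, 0.423 and 0.578 FPKM in E14, CJ7, Suz12delta and Eednull ESCs, and at 0.435, 1.19, 1.11 and 2.12 FPKM in E14, Suz12GT, Suz12delta and Eednull day 5 cells. *Zim1*, a maternally expressed zinc finger gene, was at 0.220, 0.303, 0.354 and 0.445 FPKM in the ESCs in that order, and at 0.962, 2.88, 1.54 and 1.03 FPKM in the day 5 cells. *Zim1* was highest in Suz12GT, whereas *Peg3* was highest in Eednull cells.

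In the *Igf2r* cluster, *Airn* (chr17:12934177-13052988, plus strand), the paternally expressed noncoding RNA that runs through *Igf2r* in the opposite direction, was at 0.815 FPKM in E14, 0.171 FPKM in CJ7, 3.58 FPKM in Suz12delta and 3.20 FPKM in Eednull ESCs. At day 5 *Airn* was at 2.55 FPKM in E14, 3.16 FPKM in Suz12GT, 23.7 FPKM in Suz12delta and 43.7 FPKM in Eednull cells. Suz12delta and Eednull were above every wild-type library of the same time, and Suz12GT was close to E14. The log2 ratio to E14 was 2.01 in Suz12delta and 1.85 in Eednull ESCs, and 0.30, 3.17 and 4.05 in Suz12GT, Suz12delta and Eednull day 5 cells. The wild-type lines themselves differed in *Airn*, with a log2 ratio of -1.75 in CJ7 against E14.

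*Igf2r* (chr17:12875272-12962530, minus strand), the maternally expressed receptor that clears IGF2, was at 24.6 FPKM in E14, 10.8 FPKM in CJ7, 31.3 FPKM in Suz12delta and 14.8 FPKM in Eednull ESCs. At day 5 *Igf2r* was at 12.8 FPKM in E14, 17.6 FPKM in Suz12GT, 46.2 FPKM in Suz12delta and 11.7 FPKM in Eednull cells. Only Suz12delta was at least 2-fold from E14 at day 5 (log2 ratio 1.84), although *Airn* was higher in both lines. The ratio of *Airn* to *Igf2r* went from 0.0331 in E14 and 0.0158 in CJ7 ESCs to 0.114 in Suz12delta and 0.217 in Eednull ESCs, and was 0.199, 0.179, 0.513 and 3.75 in E14, Suz12GT, Suz12delta and Eednull day 5 cells. *Airn* and *Igf2r* share no annotated exon bases, but whether the counting used strand is not given in the sources used here. *Slc22a3*, a cation transporter imprinted in the placenta, was at 0.0152, 0.0275, 0.0401 and 0.150 FPKM in E14, CJ7, Suz12delta and Eednull ESCs, and at 0.0154, 0.146, 2.28 and 0.987 FPKM in E14, Suz12GT, Suz12delta and Eednull day 5 cells. It thus came near 1 FPKM or above it only in the last 2 libraries.

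The genes followed here from the *Snrpn* cluster are all paternally expressed. *Snrpn*, a spliceosomal protein, was at 47.0 FPKM in E14, 41.2 FPKM in CJ7, 17.4 FPKM in Suz12delta and 44.6 FPKM in Eednull ESCs. At day 5 *Snrpn* was at 38.6 FPKM in E14 and 50.4 FPKM in Suz12GT cells, and at 10.8 FPKM in Suz12delta and 11.0 FPKM in Eednull cells. Its log2 ratio to E14 day 5 was -1.82 in Suz12delta and -1.80 in Eednull cells. These were also the libraries with low motor neuron markers, and with the highest fibroblast and trophoblast sums of day 5. Whether cell type had a part in the *Snrpn* values was not tested. *Ndn*, the MAGE family protein necdin, was at 6.03 FPKM in E14, 6.31 FPKM in CJ7, 13.5 FPKM in Suz12delta and 9.39 FPKM in Eednull ESCs, and at 30.1, 37.5, 28.9 and 19.01 FPKM in E14, Suz12GT, Suz12delta and Eednull day 5 cells. The 3 lines measured at both times had at least 2-fold more *Ndn* at day 5 than in ESCs, although after scaling the log2 ratio was 0.71 in Suz12delta and 0.99 in Eednull. *Magel2*, a further MAGE gene, was at 0.715, 0.362, 0.450 and 0.789 FPKM in E14, CJ7, Suz12delta and Eednull ESCs, and at 1.16, 2.72, 3.28 and 1.06 FPKM in the day 5 cells in the order above. At day 5 *Magel2* was thus at least 2-fold above E14 in Suz12GT (log2 ratio 1.16) and Suz12delta cells (1.42). Both ratios fell below 2-fold with a pseudocount of 1 (log2 ratios 0.78 and 0.99). *Mkrn3*, a makorin ubiquitin ligase, was at 1.88, 0.898, 0.450 and 0.401 FPKM in the ESCs and at 4.34, 5.36, 3.76 and 2.84 FPKM in the day 5 cells. *Peg12*, a relative of the Frat genes, was at 0.741, 1.66, 0.852 and 1.12 FPKM in the ESCs and at 5.47, 6.52, 5.07 and 2.94 FPKM in the day 5 cells. Both *Mkrn3* and *Peg12* were at least 2-fold higher at day 5 than in ESCs in E14, Suz12delta and Eednull, and within 2-fold of E14 in each mutant at day 5.

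In the *Peg10* cluster, *Peg10*, a paternally expressed retrotransposon-derived gene needed in the placenta, was at 27.2 FPKM in E14, 20.2 FPKM in CJ7, 36.9 FPKM in Suz12delta and 47.4 FPKM in Eednull ESCs. At day 5 *Peg10* was at 20.7 FPKM in E14, 26.7 FPKM in Suz12GT, 103 FPKM in Suz12delta and 53.8 FPKM in Eednull cells. *Sgce*, the sarcoglycan gene next to it, was at 5.24, 5.71, 12.6 and 7.39 FPKM in E14, CJ7, Suz12delta and Eednull ESCs, and at 15.2, 15.0, 11.8 and 10.2 FPKM in E14, Suz12GT, Suz12delta and Eednull day 5 cells. These genes start side by side on opposite strands, yet at day 5 *Peg10* was higher than E14 in Suz12delta and Eednull cells while *Sgce* was slightly lower. The ratio of *Peg10* to *Sgce* was 1.36 in E14 and 1.78 in Suz12GT, against 8.73 in Suz12delta and 5.26 in Eednull day 5 cells. *Ppp1r9a*, the actin-binding protein neurabin, was at 5.59, 3.71, 0.892 and 2.56 FPKM in the ESCs and at 6.29, 7.56, 9.57 and 9.12 FPKM in the day 5 cells, so the mutants were below wild type in ESCs and slightly above it at day 5.

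*Mest* (chr6:30673547-30698457, plus strand), a paternally expressed enzyme of the alpha/beta hydrolase family, was at 3.57 FPKM in E14, 62.8 FPKM in CJ7, 40.1 FPKM in Suz12delta and 116 FPKM in Eednull ESCs. At day 5 *Mest* was at 6.74 FPKM in E14, 38.3 FPKM in Suz12GT, 412 FPKM in Suz12delta and 338 FPKM in Eednull cells. In ESCs it was E14 that stood apart, since the other wild-type line lay among the mutants. The log2 ratio to E14 was 3.46 in Suz12delta and 4.98 in Eednull ESCs, but against CJ7 it was -0.65 and 0.88. At day 5, where only E14 served as wild type, the log2 ratio was 2.49 in Suz12GT, 5.91 in Suz12delta and 5.63 in Eednull cells. *Copg2*, a coatomer subunit on the opposite strand, was at 45.4, 25.4, 22.1 and 16.2 FPKM in E14, CJ7, Suz12delta and Eednull ESCs, and at 52.5, 40.2, 29.8 and 28.7 FPKM in E14, Suz12GT, Suz12delta and Eednull day 5 cells. *Mest* and *Copg2* share 904 exon bases in the annotation (23.0% and 20.2% of their exon bases), so without strand their values are not fully separate. *Copg2* was lower, and *Mest* higher, in each mutant than in E14 at both times.

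At the *Gnas* locus, *Gnas*, which encodes the stimulatory G protein alpha subunit, was at 155 FPKM in E14, 112 FPKM in CJ7, 203 FPKM in Suz12delta and 236 FPKM in Eednull ESCs. At day 5 *Gnas* was at 316 FPKM in E14, 283 FPKM in Suz12GT, 340.5 FPKM in Suz12delta and 282 FPKM in Eednull cells, all within 2-fold of each other. Its antisense RNA *Nespas* was at 1.505, 0.690, 1.21 and 2.89 FPKM in E14, CJ7, Suz12delta and Eednull ESCs, and at 2.27, 1.52, 2.85 and 1.96 FPKM in E14, Suz12GT, Suz12delta and Eednull day 5 cells. The genes share 988 exon bases, 31.4% of those of *Nespas*, so without strand their values are not fully separate.

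Among imprinted genes that stand alone, *Plagl1* and *Nnat* were higher than E14 in all 3 mutants at day 5. *Plagl1* (chr10:12810497-12851500, plus strand), a zinc finger transcription factor, was at 0.918 FPKM in E14, 5.60 FPKM in CJ7, 12.2 FPKM in Suz12delta and 11.0 FPKM in Eednull ESCs. At day 5 *Plagl1* was at 0.468 FPKM in E14, 48.0 FPKM in Suz12GT, 66.7 FPKM in Suz12delta and 101 FPKM in Eednull cells. All 3 mutants were far above E14, by log2 ratios of 6.40 in Suz12GT, 6.88 in Suz12delta and 7.48 in Eednull cells, while in ESCs CJ7 was also above E14 (2.48). *Nnat* (chr2:157385814-157388258, plus strand), the membrane protein neuronatin, was at 1.92 FPKM in E14, 9.04 FPKM in CJ7, 10.7 FPKM in Suz12delta and 15.2 FPKM in Eednull ESCs. At day 5 *Nnat* was at 9.69 FPKM in E14, 213 FPKM in Suz12GT, 138 FPKM in Suz12delta and 143 FPKM in Eednull cells. As with *Mest* and *Plagl1*, CJ7 ESCs were closer by log2 ratio to the mutant ESCs than to E14. Of the day 5 libraries, Suz12GT had the most *Nnat*.

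*Grb10* (chr11:11830511-11938686, minus strand) ran the other way. This adaptor protein, which restrains insulin signalling and is expressed from the maternal allele in most tissues but the paternal allele in neurons, was at 69.3 FPKM in E14, 18.3 FPKM in CJ7, 32.2 FPKM in Suz12delta and 30.0 FPKM in Eednull ESCs. At day 5 *Grb10* was at 239.9 FPKM in E14, 148 FPKM in Suz12GT, 10.6 FPKM in Suz12delta and 8.20 FPKM in Eednull cells. The mutant ESCs lay between the wild-type lines, and at day 5 the log2 ratio to E14 was -0.69 in Suz12GT, -4.49 in Suz12delta and -4.85 in Eednull cells. From ESCs to day 5 *Grb10* was higher in E14 (log2 ratio 1.79) and lower in Suz12delta (-1.60) and Eednull (-1.86). The libraries with low *Grb10* at day 5 were those with low motor neuron markers, and with the highest fibroblast and trophoblast sums of day 5. Whether cell type had a part in the *Grb10* values was not tested.

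*Slc38a4*, an amino acid transporter, and *Sfmbt2*, a Polycomb group protein, are known for imprinting through maternal H3K27me3. *Slc38a4* was at 61.6 FPKM in E14, 53.0 FPKM in CJ7, 52.6 FPKM in Suz12delta and 32.2 FPKM in Eednull ESCs. At day 5 *Slc38a4* was at 3.43 FPKM in E14, 9.99 FPKM in Suz12GT, 80.9 FPKM in Suz12delta and 48.6 FPKM in Eednull cells. The ESC libraries were within 2-fold of each other, and the lines parted over differentiation, where the log2 ratio of day 5 to ESCs was -4.13 in E14, 0.62 in Suz12delta and 0.59 in Eednull. *Sfmbt2* was at 11.2 FPKM in E14, 5.23 FPKM in CJ7, 25.9 FPKM in Suz12delta and 5.85 FPKM in Eednull ESCs. At day 5 *Sfmbt2* was at 2.03 FPKM in E14, 4.33 FPKM in Suz12GT, 10.5 FPKM in Suz12delta and 3.16 FPKM in Eednull cells, and it was lower at day 5 than in ESCs in each line with both times.

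*Impact*, a regulator of translation, was at 47.7, 29.3, 25.7 and 29.3 FPKM in E14, CJ7, Suz12delta and Eednull ESCs, and at 15.2, 20.2, 34.4 and 32.2 FPKM in E14, Suz12GT, Suz12delta and Eednull day 5 cells. *Impact* was lower at day 5 than in ESCs in E14 (log2 ratio -1.64) and within 2-fold in both mutants. *Zrsr1*, a splicing factor gene within *Commd1*, was at 3.56, 4.31, 4.66 and 5.39 FPKM in the ESCs and at 3.27, 4.75, 5.28 and 4.41 FPKM in the day 5 cells. *Zrsr1* shares 203 exon bases (6.18% of its own) with *Commd1* on the opposite strand, so without strand their values are not fully separate. No library was 2-fold from another for *Zrsr1*, the steadiest of the imprinted genes in these 8 libraries.

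**Figure D5:**
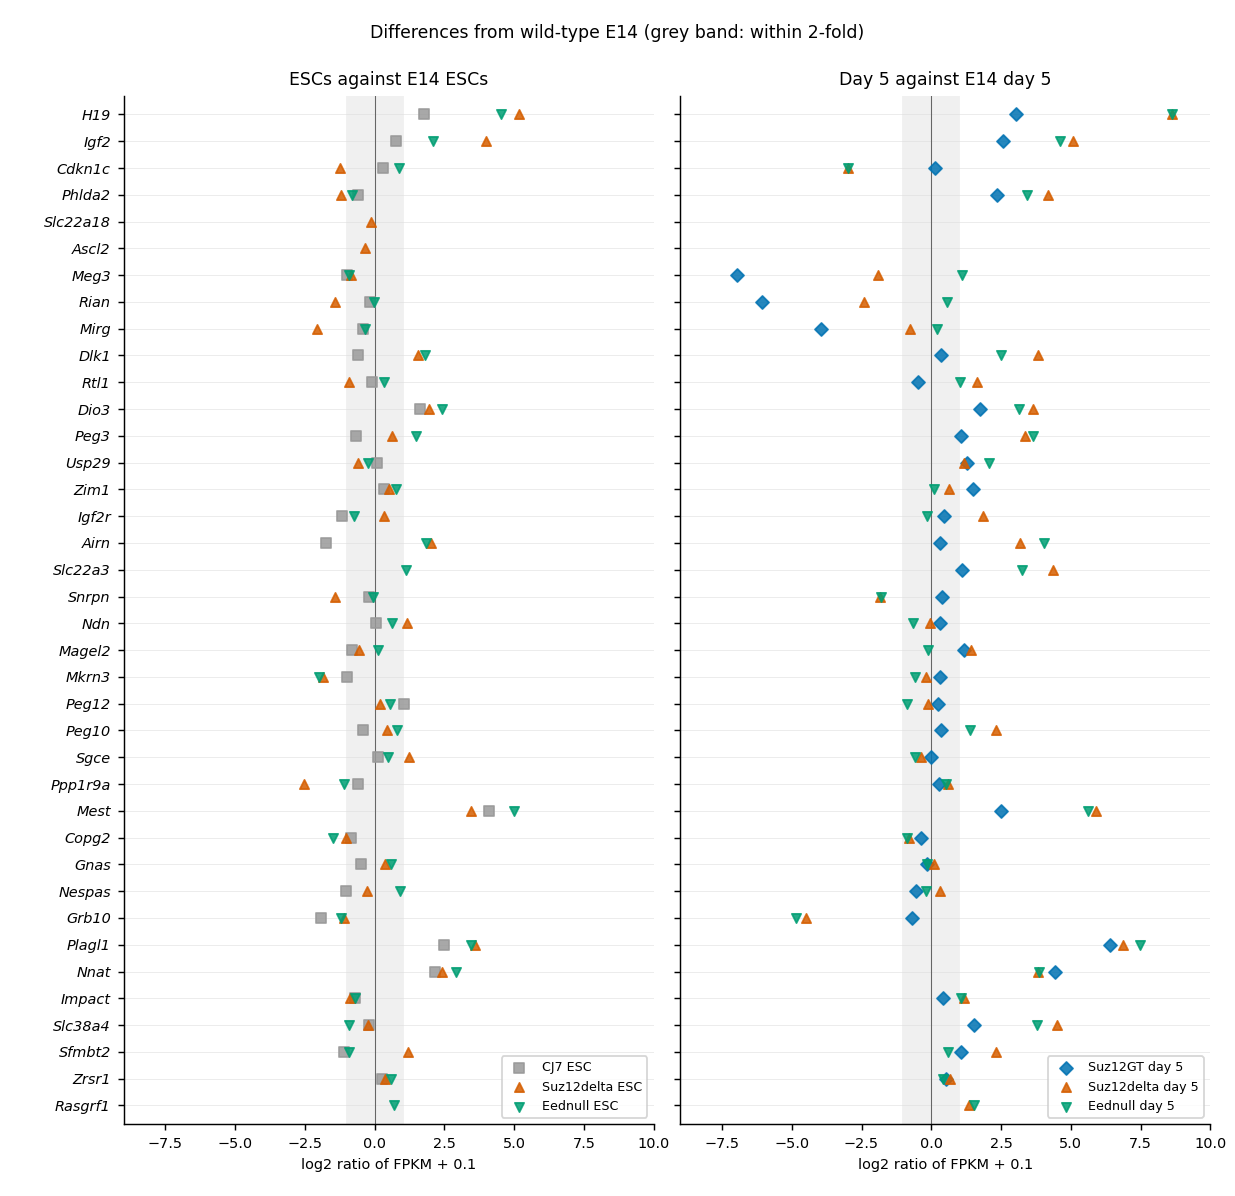
Log2 ratio of FPKM plus 0.1 to E14 for each imprinted gene, in ESCs (left) and at day 5 (right), with 1 point per comparison of 2 libraries, a grey band for differences within 2-fold, and no point where a library was listed at 0 or both were under 0.1 FPKM. In ESCs the grey squares of CJ7 for *Mest* (4.10), *Plagl1* (2.48), *Nnat* (2.18) and *H19* (1.78) lay to the right of the band like the mutants.

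Grouped by the allele that is known to be expressed, 23 of the 38 genes are paternally and 12 maternally expressed, and 3 (*Copg2*, *Gnas* and *Grb10*) differ by tissue or transcript. Of the paternally expressed genes compared at day 5, 10 of 22 were at least 2-fold higher than E14 in Suz12GT, 16 of 23 in Suz12delta and 14 of 23 in Eednull cells, and 0, 1 and 1 were lower. Over all genes 16.8%, 26.6% and 21.6% were higher and 4.4%, 9.52% and 11.3% lower in these comparisons. Of the maternally expressed genes, 4 of 10 were higher and 3 lower in Suz12GT, 4 of 10 higher and 3 lower in Suz12delta, and 6 of 12 higher and 1 lower in Eednull cells. The median log2 ratio at day 5 was 0.47, 1.64 and 1.37 for paternally expressed and 0.36, 0.61 and 0.83 for maternally expressed genes, in Suz12GT, Suz12delta and Eednull cells. In ESCs, 10 of 22 paternally expressed genes were higher than E14 and 2 lower in Suz12delta, and 8 of 23 were higher and 1 lower in Eednull. Among maternally expressed genes, 1 of 11 was higher and 5 lower in Suz12delta ESCs, and 2 of 12 were higher and 3 lower in Eednull ESCs. The 2 wild-type lines also differed, with 5 of 22 paternally expressed genes higher and 3 lower in CJ7 than in E14, and 1 of 11 maternally expressed genes higher and 3 lower. Over all genes 18%, 22.4% and 15.7% were higher and 22.8%, 11.9% and 14.7% lower than E14 in Suz12delta, Eednull and CJ7 ESCs. Against CJ7, 4 of 11 maternally expressed genes were higher and 4 lower in Suz12delta ESCs, and 1 of 10 was higher and 0 lower in Eednull ESCs. Of the paternally expressed genes, 8 of 22 were higher than CJ7 and 1 lower in Suz12delta ESCs, and 6 of 23 were higher and 0 lower in Eednull ESCs. The shares of all genes against CJ7 were 21.1% higher and 24% lower in Suz12delta, and 20.5% and 10.7% in Eednull ESCs. Genes of a cluster share control regions, so these counts are not of independent genes.

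Beyond the genes above, 40 of 46 further imprinted genes, listed from general knowledge, were in the table. Some of them, such as *Igf2as* and *Kcnq1*, lie in the clusters above, so the further genes are not a separate set of loci. At least 2-fold higher than E14 at day 5 were 13 of 35 in Suz12GT, 18 of 36 in Suz12delta and 15 of 35 in Eednull cells, and 1, 4 and 7 were lower. The shares of all genes were 16.8%, 26.6% and 21.6% higher and 4.4%, 9.52% and 11.3% lower. Of those at 1 FPKM or more, *Ano1*, *Asb4*, *Dcn*, *Igf2as*, *Phactr2*, *Pon2* and *Smoc1* were higher in each of the 3 mutants and *Ddc*, the dopa decarboxylase gene, was lower in each. *Smoc1*, a secreted calcium-binding protein, was at 1.297 FPKM in E14, 7.22 FPKM in Suz12GT, 15.5 FPKM in Suz12delta and 16.9 FPKM in Eednull day 5 cells. *Ddc* was at 63.6 FPKM in E14, 30.3 FPKM in Suz12GT, 10.8 FPKM in Suz12delta and 8.41 FPKM in Eednull day 5 cells. In ESCs, 5 of the 40 were higher and 1 lower in the mutants when set against both wild-type lines, beside 3.4% and 1.31% of all genes. *Gab1*, a docking protein of growth factor receptors, was the 1 that was lower, at 21.0 FPKM in E14 and 22.7 FPKM in CJ7 against 6.10 FPKM in Suz12delta and 7.31 FPKM in Eednull ESCs. *Igf2as*, antisense to *Igf2* and sharing 98 exon bases with it, was at 0.115 and 0.112 FPKM in E14 and CJ7 and at 1.17 and 1.10 FPKM in Suz12delta and Eednull ESCs. The others at 1 FPKM or more were *Osbpl5*, *Tnfrsf23* and *Htr2a*, of which *Osbpl5* was at 2.36 and 2.03 FPKM in E14 and CJ7 and at 22.2 and 5.35 FPKM in Suz12delta and Eednull ESCs.

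Of 20 genes that set or keep imprints, such as *Zfp57*, *Trim28* and *Dnmt1*, 1 was higher in both mutant ESC lines than in both wild-type lines and 0 were lower, beside 3.4% and 1.31% of all genes. The 1 was *Dnmt3l*, a cofactor of the de novo methyltransferases, at 34.3 FPKM in E14 and 60.0 FPKM in CJ7 ESCs and at 128 FPKM in Suz12delta and 186 FPKM in Eednull ESCs. In Suz12delta ESCs 9 of the 20 were at least 2-fold lower than in E14 ESCs, beside 22.8% of all genes, against 0 in Eednull and 0 in CJ7 ESCs, beside 11.9% and 14.7%. After scaling to the same 75th percentile, an alternative added after the values were seen, 1 of the 20 was lower in Suz12delta ESCs, beside 14.02% of all genes, so the count of 9 depended on the scaling. The Suz12delta ESC library was also the one with the lowest summed pluripotency markers, at 494 FPKM for the 8 genes against 991 to 1185 FPKM in the other 3 ESC libraries. At day 5, 1 of 19 of these genes was higher than E14 in Suz12GT, 3 of 19 in Suz12delta and 0 of 18 in Eednull cells, and 0 were lower in each, beside the shares of all genes given above for day 5.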

How the data were processed

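RNA-seq was measured in 8 mouse libraries, 1 for each condition, grouped from the sample labels. The authors deposited FPKM for each gene after alignment to mm9 (NCBI build 37) by TopHat 1.3.2 with Bowtie 0.12.7, and estimation by Cuffdiff and Cufflinks 1.2.1 with an Ensembl-based annotation and corrections for sequence bias and for reads that map to several places. Low values did not fall on steps of single reads (at most 2.95% of genes under 0.1 FPKM in a pair of libraries shared 1 ratio), so depth is unknown and no interval is given.

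The 39 imprinted genes, the markers and the further lists were chosen with earlier results of these data known. Log2 ratios used a pseudocount of 0.1, which understates the change of low genes, and genes past 2-fold were counted beside the same count over all genes compared. Genes listed at 0 stay in these counts. Members at 1 FPKM or more in any library were given in all 8. Further imprinted genes and maintenance factors were named when at least 2-fold the same way in both mutant ESC lines against both wild-type lines, or in all 3 mutants at day 5, at 1 FPKM or more. Gene spans are from GENCODE vM1, where all 38 identifiers matched. The counting was tested on simulated data. Python 3.11.15, NumPy 2.4.6, pandas 2.3.3 and matplotlib 3.10.9 were used. The alternatives were a pseudocount of 1, scaling of the 75th percentile of 17842 genes to 1 level, a higher minimum (1 FPKM) or none, genes above 0 only, CJ7 as the wild-type ESC line and leaving out each ESC library.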

Additional observations from a re-analysis of the deposited data

Results flagged for a closer look

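Among the imprinted genes above 0 in the libraries compared, 4 were at least 2-fold different between ESCs and day 5 in opposite directions in different lines. *H19* had a log2 ratio of day 5 to ESCs of -2.61 in E14 and 1.47 in Eednull. *Cdkn1c* had 1.80 in E14 and -2.08 in Eednull. For *Meg3* the ratio was -1.54 in Suz12delta and 1.57 in Eednull. *Grb10* had 1.79 in E14, -1.60 in Suz12delta and -1.86 in Eednull. *Slc22a18* and *Ascl2*, listed at 0 in some of these libraries, were left out. With 1 library per condition, the difference between lines was not tested. The Eednull and CJ7 ESC libraries may share a batch that the day 5 libraries do not, and E14, Suz12delta and Eednull differ in strain background.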

How the results depend on the processing

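No paired analysis was possible because each condition had 1 library and the labels carry no replicate numbers. Most counts of imprinted genes stayed within 1.5 times their value under the alternatives, and the following did not. After scaling to the same 75th percentile, 5 in place of 9 genes were lower in Suz12delta ESCs than in E14 ESCs and 4 in place of 7 in CJ7 ESCs, and 1 in place of 9 of the 20 genes that set or keep imprints was lower in Suz12delta ESCs. With CJ7 as the wild-type line, 5 genes were lower in Suz12delta ESCs and 0 in Eednull ESCs in place of 6. With a pseudocount of 1, 3 in place of 7 genes were lower in CJ7 than in E14 ESCs, 7 in place of 14 were higher in Suz12GT day 5 cells, and 11 in place of 18 were higher in Eednull cells at day 5 than in ESCs. Leaving out single ESC libraries, chosen after the data were seen, gave 5 to 8 genes higher in the mutant than in the wild-type ESCs in place of 4, and 0 to 5 lower in place of 0, with the 8 and 5 coming without Eednull and 8 and 4 without CJ7.

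For single genes, 3 ratios changed sign with CJ7 as the wild-type line: *Mest* in Suz12delta ESCs (-0.65) and *Grb10* in Suz12delta (0.81) and Eednull ESCs (0.71). Of the other ratios past 2-fold, that change left 18 past it and 13 under it, a pseudocount of 1 left 138 past and 44 under it, and scaling left 169 past and 13 under it. The minimum of 1 FPKM and the restriction to genes above 0 dropped 18 and 12 of the 182 ratios past 2-fold, which were then no longer compared, and moved none of the rest under 2-fold, and taking no minimum moved none. The cause of these changes was not tested, except that the larger pseudocount shrinks the ratios of low genes by construction. Unknown depth limits what can be said of genes near or below 1 FPKM.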
